A study of Mus musculus with 2 samples.

Results

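The 7 genes described here encode the machinery that releases the sterol regulatory element-binding proteins (SREBPs) from membranes: Mbtps1, Mbtps2, Scap, Srebf1, Srebf2, Insig1 and Insig2. They were chosen by symbol from the 32285 features of the count matrices, and each symbol matched 1 feature in both matrices. The series holds 2 droplet libraries of single-cell RNA sequencing, 1 per group, made from tumours grown from MC38, which is a colon adenocarcinoma line of the mouse. The control library is labelled Mbtps1 WT. The other is labelled Mbtps1 KD, which the series text calls a knockout, and it is called the knockdown library here. The study asked how loss of MBTPS1 relates to the cells of the tumour and its surroundings. The labels give no age, sex or strain of the host, no agent and no number of animals, and they do not say how Mbtps1 was lowered or whether the line was 1 clone. With 1 library per group no difference below has a replicate check, no test was made, and every interval is a 95% interval for counting error only.

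SREBPs are made as precursors that sit in the membrane of the endoplasmic reticulum, bound to the sterol sensor SCAP. When sterols are scarce, SCAP escorts the precursor to the Golgi, where site-1 protease, the product of Mbtps1, cuts it in its lumenal loop. Site-2 protease, the product of Mbtps2, then cuts within the membrane, and the released part enters the nucleus and switches on genes of cholesterol and fatty acid synthesis. INSIG proteins hold SCAP back when sterols are plentiful. Srebf1 and Srebf2 encode the precursors. SREBP2 acts mainly on cholesterol synthesis and uptake, and SREBP1 mainly on fatty acid synthesis. Escort and cleavage act on the proteins, so counts of RNA do not measure them.

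The genes lie on 7 chromosomes of GRCm38 in the GENCODE vM21 annotation, matched by gene identifier, and all are protein coding. Labels and file headers used here name no build for the counting. Mbtps1 (ENSMUSG00000031835) is on the minus strand of chromosome 8 from 119508156 to 119558735, and Mbtps2 on the minus strand of chromosome X from 157535371 to 157598715. Scap is on the plus strand of chromosome 9 from 110333288 to 110384950. Srebf1 is on the minus strand of chromosome 11 from 60199089 to 60222581, and Srebf2 on the plus strand of chromosome 15 from 82147181 to 82205379. Insig1 is on the plus strand of chromosome 5 from 28071363 to 28078662, and Insig2 on the minus strand of chromosome 1 from 121304353 to 121332589.

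Insig1 and Srebf2 are themselves known SREBP targets, so their start regions are shown beside that of Mbtps1, the gene that was lowered. Each window runs from 250 bases before to 50 bases after a transcription start in RefSeq on GRCm38.p6, is printed 5′ to 3′ on the gene's strand, and has in capitals the letters TCACCCCA, a core of the sterol regulatory element that SREBPs bind, or CACGTG, a palindromic E-box, which SREBPs can also bind. The windows are chr8:119558712-119559011 on the minus strand for Mbtps1, chr15:82147019-82147318 on the plus strand for Srebf2 and chr5:28071162-28071461 on the plus strand for Insig1.
Mbtps1: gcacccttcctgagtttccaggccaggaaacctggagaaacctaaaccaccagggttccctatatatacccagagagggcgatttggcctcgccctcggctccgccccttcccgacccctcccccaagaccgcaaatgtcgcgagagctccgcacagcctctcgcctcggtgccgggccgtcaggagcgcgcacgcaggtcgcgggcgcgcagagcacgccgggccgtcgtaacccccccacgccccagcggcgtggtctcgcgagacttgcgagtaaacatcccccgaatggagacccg
Srebf2: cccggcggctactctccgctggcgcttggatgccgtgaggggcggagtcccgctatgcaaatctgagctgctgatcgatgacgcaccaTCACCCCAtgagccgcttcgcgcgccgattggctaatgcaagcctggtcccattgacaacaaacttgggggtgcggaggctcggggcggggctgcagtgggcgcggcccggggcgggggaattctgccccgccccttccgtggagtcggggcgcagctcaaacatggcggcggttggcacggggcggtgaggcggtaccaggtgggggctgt
Insig1: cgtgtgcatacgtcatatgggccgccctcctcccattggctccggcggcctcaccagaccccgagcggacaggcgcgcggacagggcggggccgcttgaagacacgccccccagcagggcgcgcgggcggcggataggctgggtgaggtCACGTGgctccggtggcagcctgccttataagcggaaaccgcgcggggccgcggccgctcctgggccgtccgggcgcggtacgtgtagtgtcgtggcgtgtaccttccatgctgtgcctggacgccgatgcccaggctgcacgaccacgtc
TCACCCCA, searched on both strands, was in the Srebf2 window from base 89 to base 96 and in no other of the 12 windows of the 7 genes. It was in 1.56% of the 32851 windows of the same length over all genes. CACGTG was in the Insig1 window from base 150 to base 155 and in both overlapping windows of Scap, and in 7.15% of all windows. The letters CCAAT, the box bound by NF-Y, were found on either strand in windows of 4 of the 7 genes and of 41.1% of all genes. The letters GGGCGG, a GC box, were in windows of 6 of the 7 genes and of 38.2% of all genes. These matches describe letters only, and a window without them says nothing about binding.

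The matrices held 177399315 control and 174190399 knockdown UMIs (unique molecular identifiers, tags that mark each captured molecule). After filters, 11053 control and 16574 knockdown cells remained, with medians of 8188 and 4603 UMIs, and the libraries shared 47 cell barcodes. The protocol in the labels loaded about 6000 cells per channel and aimed at about 3000, so the kept barcodes, of 1688458 and 1769772 in the files, outnumber both figures. Clustering gave 30 clusters, and 9 classes had at least 50 cells in both libraries. The tumour-like class, 6 clusters with 3359 control and 5887 knockdown cells, was called from Xist under 20 CPM and from MC38 markers, of which 7 of 15 reached 20 CPM in each library, where CPM is the count per 1000000 UMIs of the class sum. Hmga2 was at 530 CPM in control and 761 CPM in knockdown. The epithelial markers in that list were near 0, with Krt18 at 0.0232 and 0.0216 CPM, Epcam at 0.0579 and 0.0757 CPM and Cdh1 at 0.428 and 0.465 CPM, so the class rests on its other markers. In the same class 6 of 10 control and 5 of 10 knockdown fibroblast markers reached 20 CPM. Clusters 1 and 12 also had low Xist but were set aside. Cluster 1 was left out because its cells had a median of 1126 UMIs and none of the markers led it. Cluster 12 was left out because its leading 10 genes held 2 fibroblast markers and 1 MC38 marker, H19. Cluster 9, with 1 of each, was kept. Tumour-like cells were sequenced less deeply in the knockdown library, with a median of 14750 UMIs against 23950 in control. They also fell into clusters unequally, with cluster 9 holding 954 control and 413 knockdown cells and cluster 5 holding 394 and 1430.

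Among the 7 genes, Mbtps1 alone differed past 1.5-fold between the libraries in tumour-like cells. A gene was called past 1.5-fold when its CPM ratio was at least 1.5 or at most its inverse and the exact interval of the ratio left out 1. By that rule 14.1% of the 17152 genes with at least 20 UMIs were called, 10.2% as higher and 3.94% as lower in knockdown. Against that background 1 call among 7 genes is not a result about the set. The sizes and the spread across cells below describe each gene.

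Mbtps1, the gene of site-1 protease, had 2557 UMIs in the tumour-like cells of control and 1190 in those of knockdown, which is 29.6 and 12.9 CPM. The level was 2.30-fold lower in knockdown, a ratio of 0.435 (0.405 to 0.466). The counts come from the 3′ end of the RNA and measure neither the protein nor an edited site, so they give no level of active protease. At the level of cells, 49.9% of control and 17.0% of knockdown tumour-like cells had at least 1 Mbtps1 UMI. When every cell was thinned to 1000 UMIs, leaving out 11 control and 94 knockdown cells, the shares were 2.81% (2.27 to 3.43) and 1.43% (1.14 to 1.77). Macrophage/monocyte-like cells thinned in the same way had shares of 1.73% and 1.91%. Empty droplets, which hold free RNA, had Mbtps1 at 28.1 CPM (21.6 to 36.0) in control and 15.4 CPM (10.3 to 22.1) in knockdown, so the free RNA differed in the same direction as the tumour-like cells. With 10% of the UMIs taken off as free RNA the tumour-like ratio was 0.424 (0.395 to 0.454). No class of cells that lacks Mbtps1 was available as a blank for these shares.

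The lower Mbtps1 level was present in each of the 6 tumour-like clusters, and no interval reached 1. The ratio ran from 0.340 (0.282 to 0.407) in cluster 3, led by the mitotic genes Cdc20 and Ube2c, to 0.553 (0.475 to 0.644) in cluster 8, led by Tafa1 and Hs3st5. Cluster 8 had the highest level in both libraries, 36.6 CPM in control and 20.3 CPM in knockdown. Cluster 3 had the lowest, 25.7 CPM in control and 8.71 CPM in knockdown. The interferon-response cluster 10, led by Rsad2 and Ifit1, had a ratio of 0.405 (0.330 to 0.494). The low-Xist clusters that were set aside had ratios of 0.344 (0.231 to 0.504) in cluster 1 and 0.290 (0.185 to 0.436) in cluster 12.

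**Figure D1:**
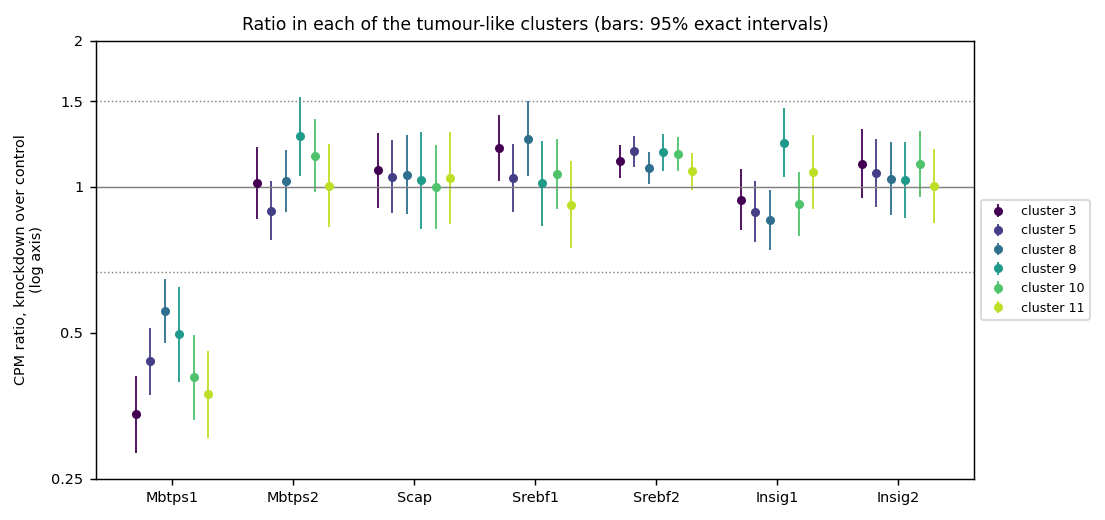
CPM ratio of each of the 7 genes between the libraries (knockdown over control, log axis) in the 6 tumour-like clusters, with 95% exact intervals for counting error and dotted lines at 1.5-fold either way. All 6 Mbtps1 points lie between 0.340 and 0.553, and the points of the other 6 genes lie between 0.853 and 1.27.

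The other protease and the escort differed little. Mbtps2, the gene of site-2 protease, had 1793 control and 2067 knockdown UMIs, 20.8 and 22.3 CPM, with a ratio of 1.08 (1.01 to 1.15). Its ratio ran from 0.893 to 1.27 over the clusters, and its interval left out 1 in 1 of 6, cluster 9. The class interval held 1 with median-of-ratios scaling, at 1.04 (0.980 to 1.11), and in each of the 4 depth ranges given below. With clusters at equal weight the Mbtps2 ratio was 1.06. Scap, the sterol sensor, was at 15.8 CPM in control and 16.6 CPM in knockdown, a ratio of 1.05 (0.977 to 1.13), and at 1.08 or less in every tumour-like cluster.

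Of the precursors, Srebf2 was slightly higher in knockdown and Srebf1 was not separated. Srebf2 had 7650 control and 9153 knockdown UMIs, 88.6 and 99.0 CPM. Its ratio of 1.12 (1.08 to 1.15) is far from the 1.5-fold line. The ratio was above 1 in 6 of 6 tumour-like clusters, from 1.08 to 1.18, and the interval left out 1 in 5 of them. In empty droplets Srebf2 was also higher in knockdown, 84.8 CPM (72.2 to 99.0) against 66.5 CPM (56.2 to 78.0). Srebf1 was at 19.4 and 20.3 CPM, a ratio of 1.05 (0.979 to 1.12), with the interval above 1 in clusters 3 and 8, at ratios of 1.20 and 1.255.

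The INSIG genes, which encode the retention proteins, were near equal as well. Insig1 was at 26.4 CPM in control and 24.5 CPM in knockdown, a ratio of 0.929 (0.876 to 0.985). Its clusters did not share a direction: the ratio was 0.853 (0.740 to 0.985) in cluster 8 and 1.23 (1.05 to 1.45) in cluster 9, the cluster led by Robo2 and Pcdh9. Insig2 was at 21.8 and 21.5 CPM, a ratio of 0.990 (0.929 to 1.05), while its ratio was above 1 in 6 of 6 clusters, up to 1.12, with each interval holding 1. With clusters at equal weight the Insig2 ratio was 1.06.

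Depth differed between the libraries, so the levels were also read within ranges of UMIs per cell. The Mbtps1 ratio was 0.342 (0.259 to 0.456) in cells of 500 to 10000 UMIs, 0.380 (0.333 to 0.432) from 10000 to 20000, 0.437 (0.393 to 0.485) from 20000 to 40000 and 0.513 (0.381 to 0.677) at 40000 or more. It stayed below 1 with its interval in every range, and the intervals of the first and last ranges overlapped. The Srebf2 difference did not hold its direction. Its ratio was 0.778 (0.671 to 0.904) in the shallowest cells, 0.998 (0.939 to 1.06) from 10000 to 20000, 1.16 (1.11 to 1.21) from 20000 to 40000 and 1.02 (0.913 to 1.15) in the deepest. From 10000 to 20000 UMIs, 3 other members had intervals below 1: Insig1 at 0.792 (0.707 to 0.890), Insig2 at 0.802 (0.712 to 0.904) and Scap at 0.856 (0.742 to 0.991). Insig1 was at 0.876 (0.651 to 1.20) in the shallowest cells and 0.900 (0.824 to 0.982) from 20000 to 40000. In the deepest cells it was at 1.26 (1.03 to 1.54). The median log2 ratio of all genes with at least 20 UMIs also moved with depth, from -0.23 in the shallowest cells to -0.06, 0.05 and 0.06 in the deeper ranges. The shallowest range held 263 control and 1461 knockdown cells and the deepest 403 and 83, so the ranges weigh the libraries differently.

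**Figure D2:**
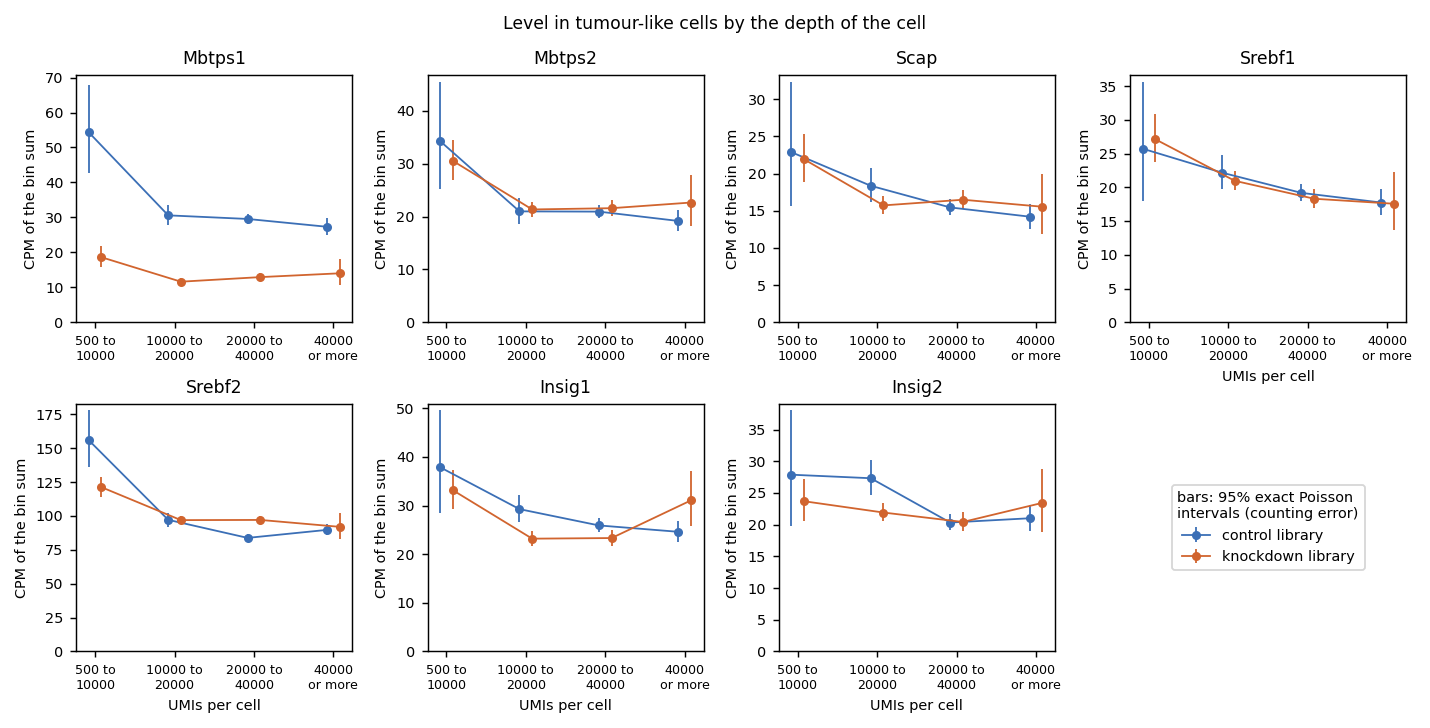
Level of each gene in tumour-like cells, as CPM of the sum over cells, in 4 ranges of UMIs per cell for the control (blue) and knockdown (orange) library, with 95% exact Poisson intervals. The Mbtps1 lines are apart in every range, from 54.3 against 18.6 CPM in the shallowest cells to 27.32 against 14.01 CPM in the deepest, while the lines of Srebf2 cross.

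Outside the tumour-like cells the interval of the Mbtps1 ratio held 1 in every class. Macrophage/monocyte-like cells, 4809 in control and 5124 in knockdown, had 604 and 412 Mbtps1 UMIs, 19.3 CPM in each library, with a ratio of 0.998 (0.878 to 1.13). In T-like cells the gene was at 35.8 CPM in control and 33.6 CPM in knockdown (ratio 0.938, 0.691 to 1.29), and in NK-like cells at 27.0 and 23.9 CPM (0.884, 0.548 to 1.42). Dendritic-like cells were at 27.6 and 23.6 CPM (0.856, 0.451 to 1.56) and fibroblast-like cells at 49.1 and 51.7 CPM (1.05, 0.722 to 1.52). The endothelial-like ratio was 0.681 (0.365 to 1.23) from 37 and 18 UMIs. The epidermis-like ratio was 0.745 (0.425 to 1.24) from 76 and 19 UMIs. Both intervals also hold the tumour-like ratio, and in no class does an interval that holds 1 show equality with control. The tumour-like ratio divided by that of macrophage/monocyte-like cells was 0.436 (0.378 to 0.503). Divided by that of the lymphoid classes together it was 0.448 (0.348 to 0.578). Against epidermis-like cells it was 0.583 (0.351 to 0.969) and against endothelial-like cells 0.639 (0.362 to 1.13). These intervals are on the log scale from the 4 counts.

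**Figure D3:**
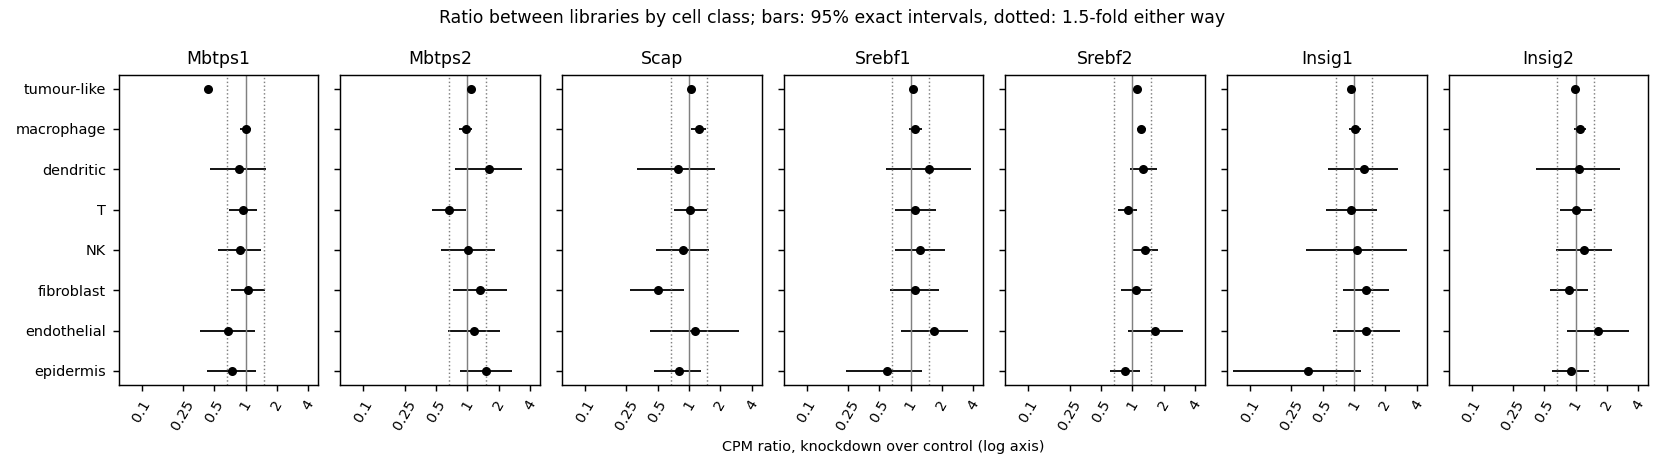
CPM ratio of each gene (knockdown over control, log axis) in 8 cell classes, with 95% exact intervals for counting error and dotted lines at 1.5-fold either way. In the Mbtps1 panel the tumour-like point at 0.435 is the only one whose interval leaves out 1, and intervals are wide in the classes with few UMIs.

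In macrophage/monocyte-like cells the escort and the SREBP2 precursor were higher in knockdown, short of 1.5-fold. Scap had 313 and 265 UMIs, 10.0 and 12.4 CPM, a ratio of 1.24 (1.05 to 1.46). Srebf2 had 981 and 821 UMIs, 31.4 and 38.4 CPM, a ratio of 1.22 (1.11 to 1.34). The Srebf2 ratio was above 1 in 7 of 7 macrophage/monocyte-like clusters, and the interval left out 1 in 2 of them. The Scap ratio was above 1 in 6 of the 7 and its interval held 1 in all 7. Srebf1, Insig1, Insig2 and Mbtps2 had ratios of 1.11 (0.961 to 1.27), 1.02 (0.892 to 1.17), 1.10 (0.967 to 1.248) and 0.970 (0.839 to 1.12). None of the 7 genes was called past 1.5-fold in this class, where 9.07% of 14330 genes were. Macrophage/monocyte-like cells were shallower in the knockdown library, with a median of 3712 UMIs against 6063. MC38 markers were also higher there, the 15 summing to 952 CPM in control and 1517 CPM in knockdown. In tumour-like cells they summed to 5361 and 7950 CPM, so the sum alone does not show a larger share of tumour RNA. Hmga2 was at 13.03 and 37.6 CPM, which is 2.46% and 4.94% of its tumour-like level. With a tumour-like profile taken off until Hmga2 was at 0, the ratios were 1.23 (1.04 to 1.46) for Scap and 1.18 (1.07 to 1.29) for Srebf2.

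In the smaller classes 2 further calls were made. Mbtps2 in T-like cells had 54 control and 72 knockdown UMIs, 29.3 and 19.5 CPM, a ratio of 0.666 (0.462 to 0.966), where 8.2% of 10694 genes were called, 3.21% as lower and 4.99% as higher. Scap in fibroblast-like cells had 47 and 17 UMIs, 33.0 and 16.6 CPM, a ratio of 0.502 (0.270 to 0.891), where 9.19% of 9564 genes were called, 5.13% as lower. Against those shares, 1 call among 7 genes in a class is not a result about the set. With doublets kept both calls ended, at 0.689 (0.481 to 0.991) for Mbtps2 in T-like and 0.600 (0.344 to 1.01) for Scap in fibroblast-like cells, and Mbtps2 in dendritic-like cells was past the fold at 2.09 (1.07 to 4.14). By the main rule no member was called in dendritic-, NK-, endothelial- or epidermis-like cells, where 7.69%, 9.59%, 9.85% and 12.7% of genes were. The interval that came nearest to leaving out 1 was that of Srebf2 in NK-like cells. It was at 59.2 and 78.6 CPM with a ratio of 1.33 (0.999 to 1.76), short of 1.5-fold. Some ratios were past 1.5-fold with an interval that held 1, such as Insig1 in epidermis-like cells, 0.358 (0.0691 to 1.17) from 25 and 3 UMIs. Neutrophil-like cells, 60 in control and 199 in knockdown, had too few UMIs for comparison: Srebf2 had 8 and 26 UMIs and each other member 6 or fewer in either library. The genes with 0 of the 103276 control UMIs there, Srebf1, Insig1 and Insig2, had an exact upper bound of 35.7 CPM.

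The order of the classes differed from gene to gene. In control, Mbtps1 ran from epidermis-like cells at 56.2 CPM (44.3 to 70.3) through fibroblast-, endothelial- and T-like cells to tumour-like cells at 29.6 CPM, and down to macrophage/monocyte-like cells at 19.3 CPM (17.8 to 20.9), with each neighbour's interval overlapping the next. In knockdown the tumour-like level of 12.9 CPM lay below the macrophage/monocyte-like level of 19.3 CPM and their intervals did not overlap. Srebf2 was highest in control epidermis-like cells, 127 CPM (109 to 148), apart from tumour-like cells at 88.6 CPM. Dendritic-like cells at 88.1 CPM and T-like cells at 77.1 CPM overlapped with their neighbours, and macrophage/monocyte-like cells at 31.4 CPM lay apart from fibroblast-like cells at 59.0 CPM. Insig2 was at 80.6 CPM (66.2 to 97.2) in control epidermis-like cells and 44.9 CPM (34.6 to 57.4) in fibroblast-like cells, each apart from the class that follows, while the remaining classes with over 100 cells lay between 11.5 and 26.0 CPM. Scap had its highest level in epidermis-like cells as well, 55.5 CPM in control and 44.1 CPM in knockdown. Insig1 was highest in control tumour-like cells, 26.4 CPM, and lowest in NK-like cells, 5.15 CPM, apart from neutrophil-like cells at 0. Mbtps2 ran from 32.6 CPM in endothelial-like to 13.8 CPM in dendritic-like cells, and Srebf1 from 29.6 CPM in epidermis-like to 9.19 CPM in dendritic-like cells, with neighbours overlapping throughout.

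**Figure D4:**
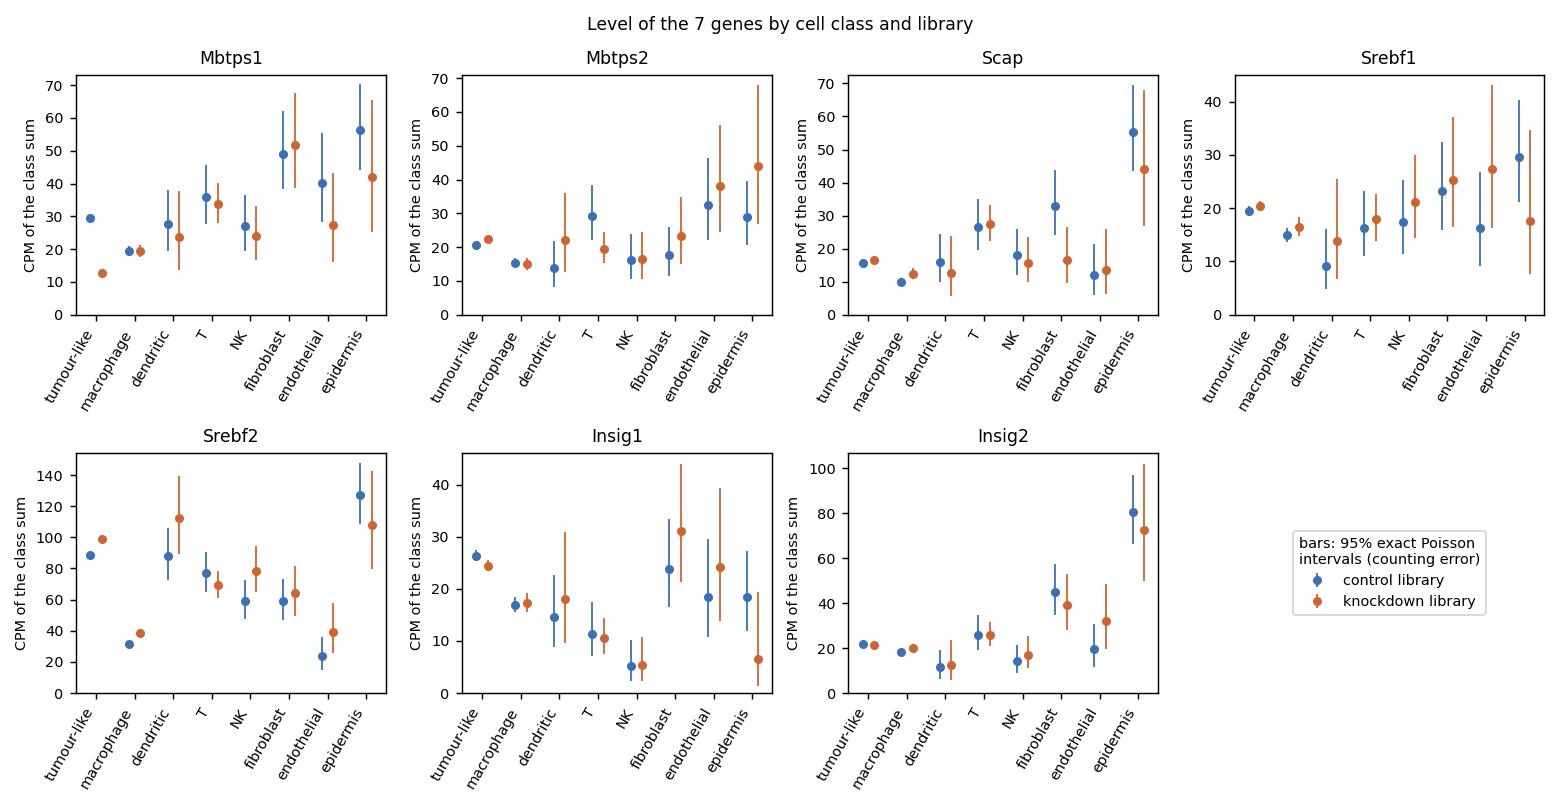
Level of each of the 7 genes, as CPM of the class sum, in 8 cell classes of the control (blue) and knockdown (orange) library, with 95% exact Poisson intervals for counting error and an axis from 0 in each panel. Mbtps1 separates the libraries in tumour-like cells, at 29.6 against 12.9 CPM, and the epidermis-like class has the highest control level of Mbtps1, Scap, Srebf1, Srebf2 and Insig2.

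The genes whose log2 level was most like that of a member over 8 classes in 2 libraries, 16 points, were named by Pearson's r among 9505 genes. For Mbtps1 these were Zbtb38 (r = 0.85), Cmah and Pik3ip1. For Mbtps2 they were Strn4 (r = 0.90), Tmx3 and Atxn7l3, for Scap Man1a2 (r = 0.96), Opa1 and Tnrc6c, and for Srebf1 Ppme1 (r = 0.88), Anapc1 and Capn15. For Srebf2 they were Rbbp7 (r = 0.88), Immp2l and Mysm1, for Insig1 Poglut2 (r = 0.92), Mrpl27 and Sec13, and for Insig2 Rarg (r = 0.94), Fto and Tbc1d10a. No member was among the 3 most like genes of another. Among the members, Scap and Insig2 were the most alike pair (r = 0.80) and Scap and Insig1 the least (r = -0.22). The points share libraries and depth, so these values are descriptions.

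In the sum over tumour-like cells most RNAs of cholesterol synthesis, the main SREBP2 targets, were lower in knockdown, each by less than 1.5-fold. Of 20 genes, 0 were called past 1.5-fold, 14 had an interval below 1 and 2 above, and the median log2 ratio was -0.22 against 0.04 over all genes. The quartiles over all genes were -0.149 and 0.287. How many of all genes had an interval off 1 was not counted. The interval counts here and for the other lists therefore have no background and give direction only. The difference between the list median and that of all genes varied with cluster and depth, by a split made after the data were seen. The list median was below that of all genes in 5 of 6 clusters, from -0.27 against 0.02 in cluster 5 to -0.10 against 0.04 in cluster 8, but it was 0.08 against -0.01 in cluster 9, with 6 intervals above 1 and 2 below. From 10000 to 20000 UMIs per cell it was -0.12 against -0.06, and from 20000 to 40000 it was -0.24 against 0.05. In the shallowest cells it was -0.19 against -0.23 and in the deepest -0.12 against 0.06. Fdps, which makes farnesyl diphosphate, was at 285 CPM in control and 206 CPM in knockdown, a ratio of 0.724 (0.710 to 0.738). Mvk, mevalonate kinase, had the lowest ratio at 0.669 (0.632 to 0.709), just inside the 1.5-fold line, with levels of 32.3 and 21.6 CPM. Cyp51, lanosterol demethylase, was at 119 and 99.8 CPM, a ratio of 0.841 (0.818 to 0.865). Sc5d, a late desaturase, had the highest ratio at 1.07 (1.01 to 1.13). In the RefSeq start windows, which were found for 15 of these genes, CCAAT was present in 14 and TCACCCCA in 1. The lower level was not particular to tumour-like cells, where the summed CPM of the list had a ratio of 0.816 (0.808 to 0.823). This summed ratio was 0.811 (0.7435 to 0.886) in T-like, 0.873 (0.778 to 0.979) in NK-like and 0.889 (0.797 to 0.989) in dendritic-like cells. Endothelial-like cells had 0.751 (0.647 to 0.871) and epidermis-like cells 0.594 (0.523 to 0.674). It was above 1 in macrophage/monocyte-like (1.04), fibroblast-like (1.09) and neutrophil-like (1.23) cells.

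None of the 5 sterol uptake and feedback genes was called in tumour-like cells. Npc2, which moves cholesterol out of lysosomes, was at 253 CPM in control and 217 CPM in knockdown, a ratio of 0.859 (0.843 to 0.876). Fatty acid synthesis genes, the main SREBP1 targets, were near equal in tumour-like cells: 0 of 15 were called, 5 intervals lay above 1 and 2 below, and the median log2 ratio was 0.04. Fasn, fatty acid synthase, was at 72.3 and 84.4 CPM, a ratio of 1.17 (1.13 to 1.21). Scd2, a desaturase, had a ratio of 1.11 (1.08 to 1.13), Acly, which makes cytosolic acetyl-CoA, 0.999 (0.971 to 1.03), and Acss2, an acetyl-CoA synthetase, 0.881 (0.766 to 1.01). Of 5 oxysterol receptor genes and targets none was called and all intervals held 1, among them Nr1h2 at 0.983, Mylip at 1.02, Nr1h3 at 1.23 and Abca1 at 0.910.

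Other substrates of site-1 protease had 1 call among 7 genes tested in tumour-like cells. Creb3l1, a membrane-bound transcription factor, had 28 and 61 UMIs, 0.324 and 0.660 CPM, a ratio of 2.03 (1.28 to 3.31). Its level in empty droplets was 3.12 CPM in control and 4.24 CPM in knockdown, above that of the class, and 1 call among 7 is close to the 14.1% of all genes called. Creb3, of the same family, was at 37.0 and 25.6 CPM, a ratio of 0.692 (0.656 to 0.730), and Creb3l2 was at 61.2 and 62.0 CPM. Gnptab, whose precursor site-1 protease cuts into the subunits of the enzyme that tags lysosomal proteins, was at 38.4 and 43.5 CPM, a ratio of 1.13 (1.08 to 1.19). Creb3l3 had 4 and 14 UMIs and was not tested.

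The regulators of SCAP, INSIG and SREBP turnover or transport had 0 calls among 19 genes, with 4 intervals above 1 and 8 below. Genes of COPII, the coat of vesicles leaving the endoplasmic reticulum, were among both. Sec23a was at 40.1 CPM in control and 26.7 CPM in knockdown, a ratio of 0.667 (0.633 to 0.703), just short of the call. Its paralog Sec23b was at 34.8 and 49.8 CPM, a ratio of 1.43 (1.37 to 1.499). Sar1a, the GTPase that starts coat assembly, was at 146 and 113 CPM, a ratio of 0.775 (0.755 to 0.795). Aup1, which acts in degradation from the endoplasmic reticulum, had a ratio of 1.07 (1.03 to 1.11). The gene listed as 2410131K14Rik, whose RefSeq symbol is Spring1 and whose product is a known cofactor of site-1 protease, was at 13.4 and 12.4 CPM, a ratio of 0.924 (0.851 to 1.004).

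In macrophage/monocyte-like cells several fatty acid synthesis RNAs were higher in knockdown. Of 15 genes 6 were called as higher in knockdown, against 7.68% of all genes in that direction, 10 intervals lay above 1 and 2 below, and the median log2 ratio was 0.34 against 0.06 over all genes. The 6 genes, named after their values were seen, were Fasn, Scd1, Scd2, Elovl6, Fads2 and Me1. Scd2 was at 36.1 CPM in control and 62.0 CPM in knockdown, a ratio of 1.72 (1.59 to 1.86), and its interval lay above 1 in 7 of 7 clusters of the class. Fasn was at 6.95 and 13.4 CPM, a ratio of 1.93 (1.61 to 2.31), above 1 in 7 of 7 clusters with the interval above 1 in 5. Fads2, a desaturase of polyunsaturated fatty acids, was at 4.32 and 9.65 CPM, a ratio of 2.23 (1.79 to 2.79). Me1, which makes NADPH, was at 4.13 and 8.90 CPM, a ratio of 2.15 (1.71 to 2.72).

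The same RNAs were abundant in tumour-like cells and in free RNA. In empty droplets Scd2 was at 180 CPM in control and 200 CPM in knockdown, Fasn at 54.0 and 75.8 CPM, Fads2 at 52.6 and 63.6 CPM and Me1 at 65.6 and 74.2 CPM. Elovl6 was at 40.1 and 52.5 CPM there, while Scd1 was lower in knockdown, at 58.9 CPM in control and 40.8 CPM in knockdown. Hmga2, as given above, was higher in the knockdown macrophage/monocyte-like cells, also relative to its tumour-like level. With the tumour-like profile taken off until Hmga2 was at 0, which removed 2.46% of control and 4.94% of knockdown UMIs, 5 of the 6 genes were still called, with Scd2 at 1.69 and Fasn at 1.83, and Elovl6 was not, at 1.31 (1.02 to 1.68). With 10% of UMIs taken off as free RNA, the control level of Scd1, Fads2 and Me1 reached 0 and gave no ratio. That setting gave 4 calls, Fasn at 3.75, Scd2 at 2.33, Elovl6 at 13.9 and Acsl3, which was not among the 6, at 1.69. Calls after either subtraction used the main interval scaled to the new ratio. Such an interval does not cover the larger error of a small remainder, so these calls are not firm. Whether another share of free RNA accounts for the difference was not tested. The cholesterol list had 1 call among 20 genes in this class and a median log2 ratio of 0.14.

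**Figure D5:**
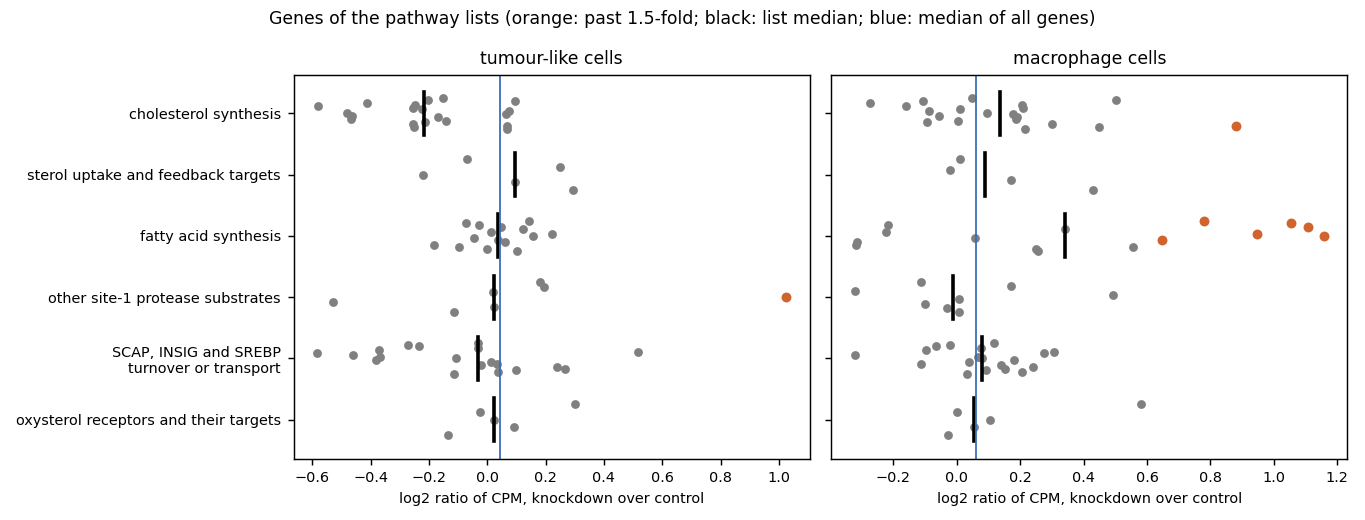
Log2 ratio of CPM (knockdown over control) of each gene of the 6 pathway lists with at least 20 UMIs, in tumour-like (left) and macrophage/monocyte-like (right) cells, with orange for calls past 1.5-fold, a black bar at the list median and a blue line at the median of all genes. The cholesterol median is -0.22 on the left and 0.14 on the right, and 6 fatty acid genes are orange on the right and 0 on the left.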

How the data were processed

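Members and gene lists were chosen with earlier results of these data known. The authors deposited unfiltered matrices of UMI counts per gene and barcode, made with Cell Ranger 4 per the file headers. Which build and annotation were used is not stated in the headers or labels.

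Kept barcodes had 500 or more UMIs, 250 or more genes, no more than 20% mitochondrial UMIs and RNA that differed from the pool of barcodes with 100 UMIs or fewer (1000 Dirichlet-multinomial draws, false discovery rate 0.01, barcodes of at least 3000 UMIs kept). Scrublet in scanpy 1.11.5 removed 466 control and 822 knockdown doublets. Clusters came from the Leiden method (resolution 1) on a graph of 15 neighbours in 30 principal components of 2000 variable genes, after scaling to 10000 UMIs per cell and without integration. Clusters took names from listed markers. Those with Xist under 20 CPM could only be tumour-like, and the limits were set after the data were seen. A cluster was set aside when its leading 10 genes held more markers of another class than of its own. It was also set aside when its median depth was under its libraries' median divided by 3 and no own marker led it. Mast- and pericyte-like cells had under 50 cells in a library and were not used.

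CPM is 1000000 times the UMIs of a gene over those of its class and library. Intervals are exact Poisson for CPM, exact conditional binomial for ratios and Clopper-Pearson for shares, at 95%. PCR duplicates are collapsed by UMIs, and intervals cover counting error only. For levels with RNA subtracted or with clusters at equal weight, the main ratio interval was scaled to the new ratio. It does not cover the added error of those settings. Poisson counts were simulated from a profile shared by both libraries, with 200 genes changed 2-fold. The rule returned 99% of them in tumour-like and 97.5% in T-like sums, with 0.845% and 1.94% of unchanged genes called. The simulation held no variation between libraries or cells, so these shares do not give the false calls in the data. Named genes were the 7 members in every class of at least 50 cells, for each list the 2 genes with the highest mean CPM and the highest and lowest ratio in tumour-like cells, and 3 like genes per member. Some genes that this rule names are not reported here. 2410131K14Rik was added after its values were seen, as were the list genes named in macrophage/monocyte- and T-like cells. The alternatives were a minimum of 1000 UMIs, a 10% mitochondrial limit, doublets kept, resolution 0.5, cells of 10000 to 20000 UMIs, median-of-ratios scaling, equal weights for cells or clusters, 10% free RNA subtracted, other fold and UMI limits and, added after the data were seen, all low-Xist clusters counted as tumour and a tumour-like profile subtracted.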

Additional observations from a re-analysis of the deposited data

Results flagged for a closer look

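The Mbtps2 ratio lay on opposite sides of 1 in 2 classes, at 1.077 (1.01 to 1.15) in tumour-like cells and 0.666 (0.462 to 0.966) in T-like cells, the latter from 54 and 72 UMIs. The Scap ratio did so as well, at 1.238 (1.05 to 1.46) in macrophage/monocyte-like cells and 0.5022 (0.270 to 0.891) in fibroblast-like cells, the latter from 47 and 17 UMIs. Each group was 1 library, so neither difference between classes was tested across samples. By the 4 counts alone, the Mbtps2 ratio of tumour-like over T-like cells was 1.62 (1.13 to 2.31). With doublets kept the fibroblast-like Scap interval held 1, at 0.600 (0.344 to 1.01). The tumour-like Mbtps2 interval held 1 with median-of-ratios scaling, at 1.04 (0.980 to 1.11), and in cells of 10000 to 20000 UMIs, at 1.02 (0.893 to 1.16).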

How the results depend on the processing

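The Mbtps1 ratio in tumour-like cells was 0.435 and ran from 0.380, in cells of 10000 to 20000 UMIs, to 0.451 over 10 alternatives. The count of members past 1.5-fold was 1 under every alternative tried, a call fold of 2 included. In cells of 10000 to 20000 UMIs the Srebf2 ratio was 0.998, on the other side of 1. The number of pathway list genes past 1.5-fold in tumour-like cells, 1 by the main rule, was not stable. It was 2 with at most 10% mitochondrial UMIs, 2 with cells at equal weight, 2 with list genes of at least 1 UMI and 0 with at least 100 UMIs. It was 3 at resolution 0.5, 3 with all low-Xist clusters counted as tumour (chosen after seeing the data), 3 with median-of-ratios scaling, 3 with 10% free RNA subtracted and 5 in cells of 10000 to 20000 UMIs. The cholesterol median log2 ratio ran from -0.26 to -0.12, the latter with clusters at equal weight and in cells of 10000 to 20000 UMIs, where that of all genes was -0.06. The Mbtps2 call in T-like and the Scap call in fibroblast-like cells ended with doublets kept. The count of fatty acid genes in macrophage/monocyte-like cells, 6, was 4 to 6 over 7 alternatives, the 4 coming with 10% free RNA subtracted, where 3 genes had no ratio. Of 380 other comparisons of a value with an alternative, 364 stayed within the main interval or, for the median, within 0.1, 15 moved and 1 reversed. No paired analysis was possible because each group holds 1 library and no test was made. Depth limits every class but the tumour- and macrophage/monocyte-like cells, where each of the 7 genes had 265 or more UMIs per library.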

Other observations

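Counts of Srebf2 per tumour-like cell, in cells of unlike depth, had a variance divided by mean of 2.195 in control and 2.385 in knockdown. This is wider than Poisson counting, and the intervals do not cover it. Most of that breadth was absent at equal depth. With cells thinned to 1000 UMIs the Srebf2 value was 1.03 in control and 1.10 in knockdown. At 2000 UMIs it was 1.11 and 1.20. The highest Srebf2 count of a tumour-like cell was 20 UMIs in control and 41 in knockdown. The highest Mbtps1 count of a knockdown tumour-like cell, 11 UMIs, was above the highest of control, 7 UMIs. In T-like cells 3 of 14 tested fatty acid genes were called as higher in knockdown, against 4.99% of all genes, among them Fads2, named after its values were seen, with 2 control and 52 knockdown UMIs, a ratio of 12.99 (3.42 to 110.1), and Hmga2 was at 13.6 and 44.5 CPM in the same cells. Of the cholesterol list 1 of 19 tested genes was called in T-like cells, as lower, against 3.21% of all genes in that direction. The part of depth and of tumour RNA in these values was not tested.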
